A study of Mus musculus with 12 samples.

Results

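The genes described here are 45 genes of the unfolded protein response and of protein entry into the endoplasmic reticulum (ER), taken as a list of symbols and found through the Ensembl identifiers of a table of raw RNA-seq counts. All 45 were among the 53801 genes of the table. They were followed in eosinophils of mice, in 4 groups of 3 libraries. Bone marrow control and blood control eosinophils came from eoCre Il5tg mice, and bone marrow Atg5-knockout and blood Atg5-knockout eosinophils came from Atg5 flox/flox eoCre Il5tg mice. In both genotypes the recombinase Cre stood under the eosinophil peroxidase gene Epx, as a knock-in, and an Il5 transgene driven by the Cd3d promoter raised eosinophil numbers, so the controls also carried Cre and excess interleukin-5. The design text names 3 mice of each genotype as the source of both tissues, which does not say whether equal replicate numbers mark the same mouse. Age and sex of these mice are not given in the sources used here. Eosinophils were kept by negative selection from flushed marrow, and from blood after a density gradient and water lysis of red cells, so that tissue and isolation cannot be told apart.

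Eosinophils fill their granules with cationic proteins that are made on the rough ER during maturation in the bone marrow. A nascent secretory protein enters the ER through the Sec61 channel, loses its signal peptide to signal peptidase, receives N-glycans from the oligosaccharyltransferase, and folds with the help of the chaperone BiP, of the lectins calnexin and calreticulin and of disulfide isomerases. Proteins that fail to fold are drawn back to the cytosol by ER-associated degradation, and the sensors IRE1 (Ern1), PERK (Eif2ak3) and ATF6 (Atf6) adjust the whole system to its load. Atg5 is a core gene of autophagy, the pathway that also delivers parts of the ER to lysosomes.

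ATF6 and the spliced form of XBP1 act on many of these genes through the ER stress response element (ERSE), spelled CCAAT and CCACG with 9 bases between them, and its short form ERSE-II, spelled ATTGG and CCACG with 1 base between them. Promoter windows of 300 bases, from 250 before to 50 after the start of a RefSeq transcript on GRCm38.p6, were at hand for 37 members. Those of Hyou1, Manf, Derl1, Ostc, Atf6, Sec61a1, Spcs3 and Ssr2 were not. Searched on both strands, the ERSE stood in the windows of 9 of the 37 members (24.3%) and of 0.137% of all 27025 genes with such a window. ERSE-II stood in those of Dnajb11 and Herpud1 (5.41%), against 0.0444% of all genes, and both elements end in the same CCACG letters. The element UPRE, a site of XBP1 spelled TGACGTGG, was in none of the 37 windows and in 0.714% of all genes. The 6 ERSE stretches and the 1 ERSE-II stretch below are shown because they stand in the windows of genes whose levels differed strongly between tissues (Calr, Canx, Creld2, Pdia6) and of genes whose levels did not pass the test (Hspa5, Syvn1, Herpud1). The Hspa5 stretch lies before the RefSeq start but inside the gene interval of the count table, which begins further upstream. The element is in capitals, with up to 20 bases on each side, in the direction in which it reads as spelled.
Calr: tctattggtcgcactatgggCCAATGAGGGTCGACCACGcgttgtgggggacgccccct
Canx: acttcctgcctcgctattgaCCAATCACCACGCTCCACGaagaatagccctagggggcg
Creld2: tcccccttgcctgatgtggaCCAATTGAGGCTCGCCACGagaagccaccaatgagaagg
Pdia6: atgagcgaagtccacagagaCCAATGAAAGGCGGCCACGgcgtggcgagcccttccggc
Hspa5: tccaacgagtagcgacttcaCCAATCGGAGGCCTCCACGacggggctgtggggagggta
Syvn1: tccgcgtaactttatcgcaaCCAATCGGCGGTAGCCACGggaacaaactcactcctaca
Herpud1: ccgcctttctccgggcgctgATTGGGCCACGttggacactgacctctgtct
On GRCm38.p6 these stretches lie at chr8:84847055-84847113 (plus strand, against the direction of Calr), chr11:50325780-50325838 (minus strand, along Canx), chr15:88819500-88819558 (minus strand, against Creld2), chr12:17266471-17266529 (plus strand, along Pdia6), chr2:34772005-34772063 (plus strand, along Hspa5), chr19:6046512-6046570 (plus strand, along Syvn1) and chr8:94386357-94386407 (plus strand, along Herpud1). The other members with an ERSE were Derl3, Dnajc3 and Hsp90b1, the last with 2 copies. A match of letters is a description and does not show that a factor binds there.

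Total counts ran from 18885052 to 30270166 per library. All 11 eosinophil markers were detected in every group, with a summed level of 72473 to 94689 CPM (counts relative to a library total scaled by the trimmed mean of M-values, TMM) in bone marrow and 17823 to 47721 in blood libraries. Markers of cycling cells summed to 1563 to 2164 CPM in bone marrow and 53.1 to 143 in blood, and those of immature myeloid cells to 2912 to 4180 and 219 to 398. The red cell list held 14.6% of the counts of blood control library 1 and at most 1.43% of those of any other library. B cell markers reached 476 CPM in blood control library 1 and 884 in blood Atg5-knockout library 1, and the 9 neutrophil markers, all detected in every group, summed to 18999 to 27331 CPM in bone marrow and 13336 to 20646 in blood libraries. Basophil and mast cell markers summed to 153 to 202 CPM in bone marrow and 53.0 to 87.7 in blood. Counts of Atg5 over the whole gene gave 41.4, 45.4 and 40.5 CPM in bone marrow control and 30.6, 31.3 and 33.9 in bone marrow Atg5-knockout libraries, with no overlap and a log2 fold change of -0.44 ± 0.11 (SE, edgeR adjusted p = 0.157), and in blood the groups overlapped at 45.3, 58.8 and 40.1 and 36.7, 52.5 and 52.4 CPM. Whole-gene counts do not show whether the floxed exon was removed. The study also measured Atg5 transcripts by quantitative PCR and ATG5 protein by immunoblot in eosinophils of both tissues, which were not examined here.

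Together the 45 ER genes took about 2 times the share of the RNA in bone marrow eosinophils that they took in blood eosinophils. Their share of all counts was 1.35%, 1.17% and 1.18% in bone marrow control and 1.33%, 1.46% and 1.17% in bone marrow Atg5-knockout libraries. In blood it was 0.542%, 0.631% and 0.635% in control and 0.637%, 0.646% and 0.652% in Atg5-knockout libraries. Every bone marrow library lay above every blood library, while the genotypes overlapped in bone marrow and lay next to each other in blood. The mean share was 1.23% ± 0.103 against 0.603% ± 0.0526 in control and 1.32% ± 0.147 against 0.645% ± 0.00738 in Atg5-knockout eosinophils (SD, n = 3), and the ratio of bone marrow to blood was 2.05 in both. The 95% Wilson interval of a single library was at most 0.00445 percentage points to either side, for counting error only. With the red cell list and 6 granule protein genes taken out of the totals, the ratios were 2.05 and 2.21, and the blood genotypes overlapped. In bulk RNA fewer cells of a type and less RNA per cell cannot be told apart.

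**Figure D1:**
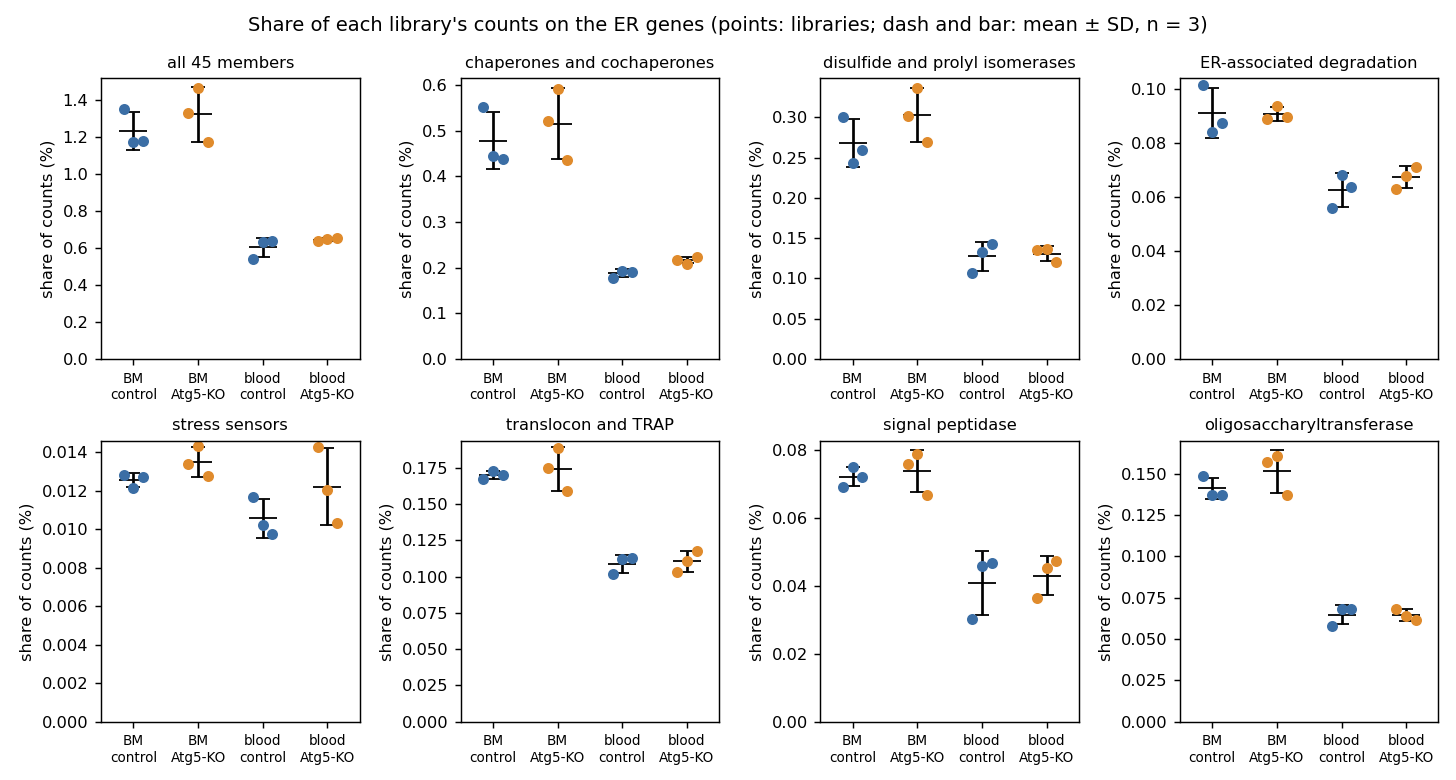
Share of each library's counts, in percent, on the 45 ER genes and on each of their 7 roles, in bone marrow (BM) and blood eosinophils of control and Atg5-knockout (KO) mice. Points are libraries and the dash with its bar is the mean ± SD (n = 3). All 6 bone marrow libraries lie at or above 1.17% for the 45 genes, and all 6 blood libraries at or below 0.652%.

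By role, the ratio between the tissues was highest for chaperones and lowest for the stress sensors. Chaperones and cochaperones took 0.479% ± 0.0633 of the counts in bone marrow control and 0.188% ± 0.0087 in blood control eosinophils, a ratio of 2.55. The ratios for the same genotype were 2.18 for the oligosaccharyltransferase, 2.10 for the disulfide and prolyl isomerases, 1.76 for signal peptidase, 1.56 for the translocon and its associated proteins, 1.45 for ER-associated degradation and 1.19 for the 3 sensors. In Atg5-knockout eosinophils they were 2.38, 2.34, 2.31, 1.72, 1.57, 1.35 and 1.11 in the same order. The order of the 7 roles was thus the same in both genotypes. No test was made between roles. These shares carry no TMM scaling. With library size alone as the scale, the median log2 fold change of all genes tested between blood and bone marrow was -0.31 in control and -0.24 in Atg5-knockout eosinophils. After TMM scaling the median of the 3 sensors was 0.040 and 0.31, so their ratios do not show a higher level in bone marrow. The scaled medians were -0.12 and -0.30 for ER-associated degradation and -0.55 and -0.56 for all 45 members. The ratios of shares are thus not read as differences in scaled level.

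Per gene length, the most abundant member in bone marrow was Calr, the soluble lectin chaperone calreticulin. It stood at 1068 ± 90.8 TPM in control and 1138 ± 213 in Atg5-knockout eosinophils (SD, n = 3). TPM are counts divided by gene length and scaled to the same total in every library, without TMM factors. They order genes within a group and are not read between tissues here. In blood the most abundant member was P4hb, a disulfide isomerase, at 394 ± 88.9 and 416 ± 12.02 TPM. In bone marrow control eosinophils Calr lay above P4hb (782 ± 143 TPM) by more than their SDs, while in blood control eosinophils the spread of P4hb overlapped with those of Hsp90b1 (278 ± 81.1), Sec61b and Pdia3 (267 ± 64.02), the next in order. The 3 sensors stood among the lower members, with Ern1 at 8.01 ± 0.715 TPM in bone marrow control and 3.71 ± 0.912 in blood control eosinophils. The lowest of all was Derl3, at 1.42 ± 0.252 and 0.339 ± 0.0863 TPM. Within roles, Herpud1 led ER-associated degradation (157 ± 40.5 and 124 ± 33.3 TPM in control bone marrow and blood), Sec61b the translocon (397 ± 20.1 and 274 ± 83.2), Ddost the oligosaccharyltransferase (297 ± 22.4 and 129.9 ± 32.6), and Eif2ak3 the sensors (15.6 ± 1.04 and 12.8 ± 2.11).

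To ask how the ER genes differ between eosinophils at the site of their production and in the circulation, blood was compared with bone marrow within each genotype. In control eosinophils 24 of the 45 members were lower in blood, 1 was higher and 20 did not pass the test (edgeR quasi-likelihood test, Benjamini-Hochberg adjusted p under 0.05). Over all 13669 genes tested, 18% were lower and 16.2% higher. In Atg5-knockout eosinophils 29 were lower, 2 higher and 14 did not pass, against 24.1% lower and 23.5% higher over 13853 genes. The median log2 fold change of the members was -0.55 in control and -0.56 in Atg5-knockout eosinophils, where that of all genes tested was -0.0029 and -0.010. The groups did not overlap, with all 3 blood libraries below all 3 bone marrow libraries, for 28 members in control (26.6% of all genes) and 32 in Atg5-knockout eosinophils (32.3%), and lay wholly above for 2 (23.5%) and 3 (27.7%). A log2 fold change below -2 was reached by 1 member per genotype, Calr in control and Hyou1 in Atg5-knockout eosinophils, against 5.19% and 6.13% of all genes, and no member was above 2, where 4.38% and 5.26% of all genes were. With library size alone as the scale the median of all genes moved to -0.31 and -0.24. On that scale 31 members were lower and 0 higher in control and 35 and 1 in Atg5-knockout eosinophils. Of the 13669 and 13853 genes tested, 3906 and 4333 were then lower. Among genes called in either direction, 74.9% and 65.7% were lower, in place of 52.7% and 50.6% with TMM scaling. The share of counts on the mitochondrial genome also differed between tissues, at 0.806% to 0.961% in bone marrow and 1.13% to 1.73% in blood libraries, and its part in these differences was not tested.

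The members that were lower were largely shared, since 23 were lower in both genotypes, which is 95.8% of those in control and 79.3% of those in Atg5-knockout eosinophils. Derl2 passed the test in control eosinophils only, and Dnajb11, Dnajc3, Sel1l, Sec61a1, Ssr4 and Stt3a in Atg5-knockout eosinophils only. For none of these 7 genes did the difference between the genotypes pass the test of the interaction. Over the 45 members the log2 fold changes of the 2 genotypes had a Pearson correlation of 0.937, and 43 had the same sign. They came from different mice with no library in common, but genes are not independent replicates.

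**Figure D2:**
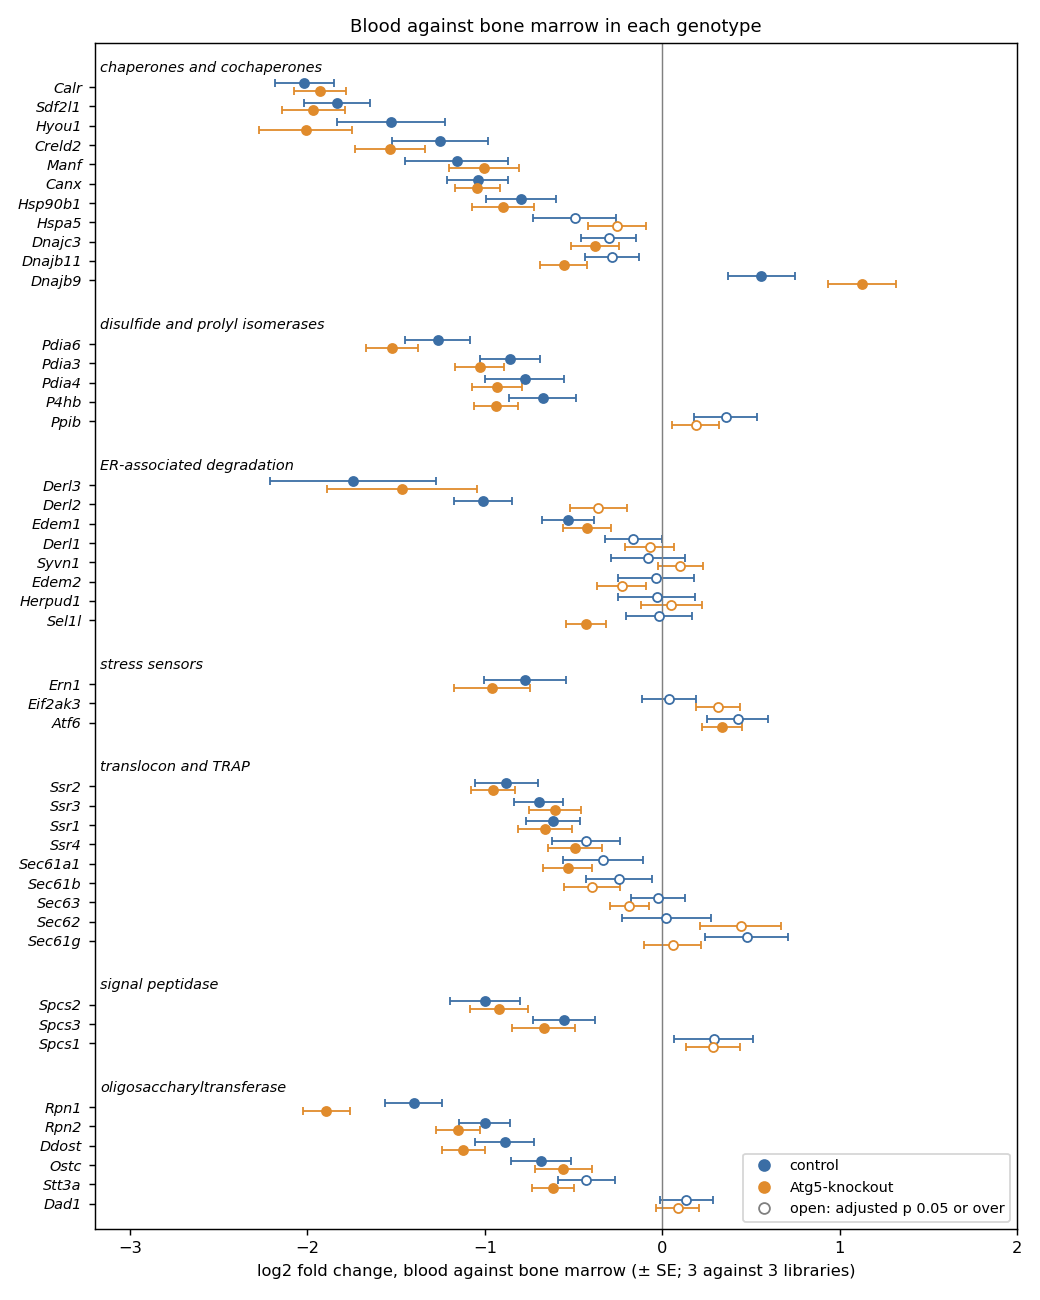
Log2 fold change of each of the 45 genes between blood and bone marrow eosinophils (negative is lower in blood), by role, for control (blue) and Atg5-knockout (orange) mice, with its standard error from 3 against 3 libraries. Filled points passed an adjusted p of 0.05. Most chaperones, isomerases and oligosaccharyltransferase subunits lie left of 0 in both genotypes, and Dnajb9 lies right of it, at 0.56 and 1.13.

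Among chaperones and cochaperones, 7 of 11 were lower in blood in control and 9 in Atg5-knockout eosinophils. Calr (chr8:84841850-84846934 on GRCm38, as the deposited table gives it) encodes the chaperone that holds glycoproteins in the ER until they are folded. It gave 1442, 1302 and 1260.3 CPM in bone marrow control and 365, 306 and 327 in blood control libraries. In Atg5-knockout eosinophils it gave 1379, 1615 and 1264 CPM in bone marrow and 399, 361 and 346 in blood. The lowest bone marrow library was thus above 3 times the highest blood library, and the log2 fold changes were -2.02 ± 0.16 (SE, adjusted p = 5.39e-05) and -1.93 ± 0.14 (adjusted p = 1.65e-05). Canx (chr11:50293961-50325673), its membrane-bound relative calnexin, gave 521, 399.5 and 459 CPM in bone marrow and 259.5, 212 and 205 in blood of control mice. Those of Atg5-knockout mice gave 482, 525 and 471 CPM in bone marrow and 230.1, 217 and 262 in blood. Its log2 fold changes were -1.04 ± 0.17 (adjusted p = 0.00239) and -1.04 ± 0.13 (adjusted p = 0.000229), so both lectins were lower in blood.

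Sdf2l1 (chr16:17130140-17132383), a partner of the BiP cochaperone Dnajb11, gave 128, 98.1 and 88.3 CPM in bone marrow control and 28.6, 32.6 and 27.6 in blood control libraries. The Atg5-knockout libraries gave 128, 131 and 86.6 CPM in bone marrow and 27.7, 31.97 and 27.7 in blood. The tissues did not overlap, and the log2 fold changes were -1.83 ± 0.19 (adjusted p = 0.000193) and -1.97 ± 0.18 (adjusted p = 4.66e-05). Dnajb11 itself was -0.29 ± 0.15 (adjusted p = 0.177) and -0.56 ± 0.13 (adjusted p = 0.00754), past the threshold in Atg5-knockout eosinophils. Hyou1, which exchanges the nucleotide of BiP, spread widely in bone marrow, with 224, 106 and 121 CPM in control and 195, 223 and 135 in Atg5-knockout libraries. In blood it gave 67.3, 46.5 and 43.1 and 61.6, 42.04 and 31.99 CPM, without overlap, for log2 fold changes of -1.53 ± 0.30 (adjusted p = 0.00538) and -2.01 ± 0.26 (adjusted p = 0.000359).

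Creld2 (chr15:88819646-88826683), an ER protein induced by ER stress, gave 96.5, 84.6 and 58.4 CPM in bone marrow and 29.8, 28.7 and 23.3 in blood Atg5-knockout libraries. The control libraries gave 86.7, 55.5 and 49.7 CPM in bone marrow and 18.8, 30.1 and 32.1 in blood. Both genotypes were lower in blood, by log2 fold changes of -1.53 ± 0.20 (adjusted p = 0.000327) and -1.25 ± 0.27 (adjusted p = 0.00816). Manf, an ER protein that binds BiP, and Hsp90b1, the ER chaperone GRP94, were lower as well, at -1.16 and -0.80 in control and -1.004 and -0.90 in Atg5-knockout eosinophils. Hsp90b1, the most abundant chaperone per length in blood control eosinophils, gave 1138, 1038 and 959.6 CPM in bone marrow and 473, 605 and 741 in blood of control mice, without overlap.

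Hspa5 (chr2:34771970-34777547), which encodes the chaperone BiP and is the textbook readout of ER load, did not pass the test in either genotype. It gave 999, 586 and 567 CPM in bone marrow control and 518, 546 and 477 in blood control libraries, and 814, 882 and 619.8 CPM in bone marrow and 574, 626 and 719 in blood Atg5-knockout libraries. Bone marrow control library 1 stood far above the other libraries of its group. The tissues did not overlap in control eosinophils and overlapped in Atg5-knockout eosinophils. The log2 fold changes were -0.49 ± 0.23 (adjusted p = 0.134, 95% interval -1.02 to 0.036) and -0.26 ± 0.16 (adjusted p = 0.223, interval -0.62 to 0.11). The interval in Atg5-knockout eosinophils excludes a 2-fold lower level, and that in control eosinophils just includes one.

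Dnajb9 (chr12:44205559-44210326), a cochaperone of BiP that is induced through IRE1 and XBP1, was the 1 member that was higher in blood in both genotypes. It gave 35.2, 27.6 and 33.7 CPM in bone marrow control and 55.9, 48.3 and 38.99 in blood control libraries, and 23.2, 27.9 and 27.4 CPM in bone marrow and 46.4, 49.1 and 74.2 in blood Atg5-knockout libraries. No blood library overlapped with bone marrow of its genotype. The log2 fold change was 1.13 ± 0.19 in Atg5-knockout eosinophils (adjusted p = 0.00154) and 0.56 ± 0.19 in control eosinophils, where the adjusted p of 0.0481 was at the edge of the threshold. The control call was lost without any 1 of the 3 bone marrow control libraries, without the filter on low counts, and with library size alone as the scale.

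**Figure D3:**
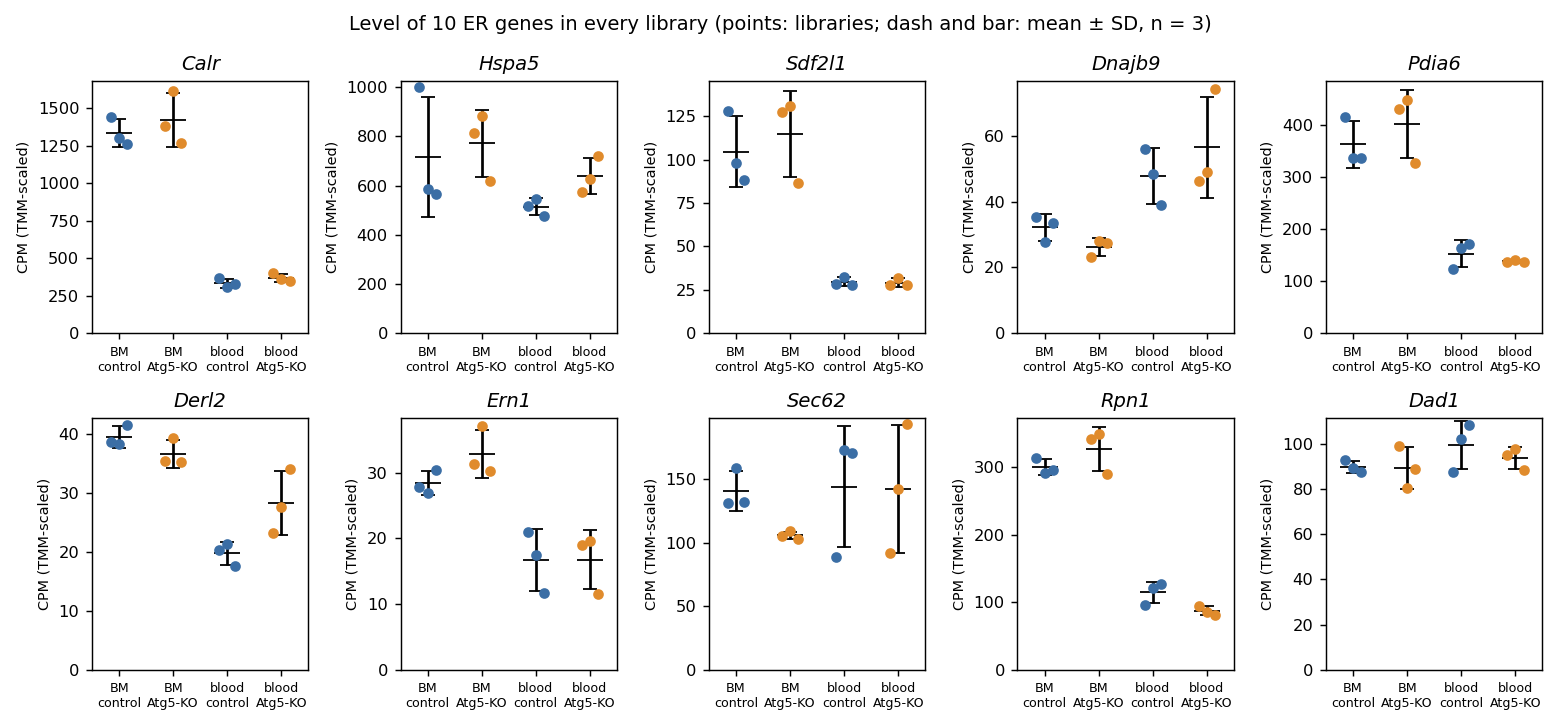
Level of 10 of the ER genes in every library, in CPM after TMM scaling, for bone marrow (BM) and blood eosinophils of control (blue) and Atg5-knockout (KO, orange) mice. Points are libraries and the dash with its bar is the mean ± SD (n = 3). Calr, Sdf2l1, Pdia6 and Rpn1 separate the tissues without overlap, Hspa5 and Dad1 do not in both genotypes, and Dnajb9 is higher in blood.

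Of the 5 disulfide and prolyl isomerases, the same 4 were lower in blood in both genotypes. Pdia6 (chr12:17266545-17284770), a disulfide isomerase that binds BiP, gave 415, 337 and 336 CPM in bone marrow control and 123, 163 and 171 in blood control libraries, and 431, 447 and 326 CPM in bone marrow and 137, 141 and 136 in blood Atg5-knockout libraries. The tissues did not overlap, and the log2 fold changes were -1.27 ± 0.18 (adjusted p = 0.00122) and -1.52 ± 0.15 (adjusted p = 6.57e-05). Pdia3, the partner of calnexin and calreticulin, was at -0.86 and -1.03, Pdia4 at -0.78 and -0.93, and P4hb at -0.67 and -0.94 on the log2 scale. P4hb gave 1149, 854 and 904 CPM in bone marrow control against 526, 604 and 707 in blood control libraries. Ppib, the prolyl isomerase cyclophilin B and the lowest of the 5 per length in every group, gave 109, 78.2 and 79.6 CPM in bone marrow and 114, 106 and 125 in blood and did not pass the test, with values of 0.36 ± 0.18 (adjusted p = 0.151) and 0.19 ± 0.13 (adjusted p = 0.269). It shares 25.0% of its exon bases with Snx22, and reads in shared bases are not in its count.

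The oligosaccharyltransferase moves N-glycans onto proteins, and 4 of its 6 members were lower in blood in control and 5 in Atg5-knockout eosinophils. Rpn1 (chr6:88084482-88105304), which hands substrates to the catalytic subunit, gave 313, 291 and 296 CPM in bone marrow control and 96.4, 121 and 126 in blood control libraries. In Atg5-knockout eosinophils it gave 341, 349.9 and 289.8 CPM in bone marrow and 94.3, 85.98 and 81.01 in blood. The highest blood library stayed under 0.5 times the lowest bone marrow library in both genotypes, and the log2 fold changes were -1.40 ± 0.16 (adjusted p = 0.00038) and -1.89 ± 0.13 (adjusted p = 1.13e-05).

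Rpn2 (chr2:157279017-157326319), a structural subunit, gave 327, 301 and 286 CPM in bone marrow and 151, 149 and 161 in blood of control mice, and 348, 333 and 299.8 and 156, 146 and 134 in those of Atg5-knockout mice, with log2 fold changes of -1.001 ± 0.15 (adjusted p = 0.00119) and -1.15 ± 0.12 (adjusted p = 0.000118). Ddost (chr4:138304730-138312628), another, gave 292, 271 and 257 CPM in bone marrow and 123, 159 and 165 in blood of control mice, and 309, 308 and 281 and 128, 132 and 149 in those of Atg5-knockout mice, with -0.89 ± 0.17 (adjusted p = 0.00415) and -1.12 ± 0.12 (adjusted p = 0.000118). Both had tissues without overlap. Ostc was lower in both genotypes (-0.68 and -0.56), and the catalytic Stt3a passed the test in Atg5-knockout eosinophils alone, with -0.62 ± 0.12 (adjusted p = 0.00267) against -0.43 ± 0.16 (adjusted p = 0.0664) in control. Stt3a, the least abundant of the role per length, gave 198, 207 and 184 CPM in bone marrow and 117, 125 and 138 in blood of Atg5-knockout mice, and 209, 159 and 175 and 138, 127 and 142 CPM in those of control mice, without overlap in either. The small subunit Dad1 did not pass in either, at 0.13 ± 0.15 (95% interval -0.20 to 0.47) and 0.086 ± 0.12 (-0.19 to 0.36).

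The translocon and the TRAP complex beside it gave 3 of 9 members lower in control and 5 in Atg5-knockout eosinophils. The TRAP subunits Ssr1, Ssr2 and Ssr3 were lower in both genotypes, at -0.62, -0.88 and -0.70 in control and -0.66, -0.95 and -0.60 in Atg5-knockout eosinophils. Ssr4 and the channel subunit Sec61a1 were at -0.49 and -0.53 in Atg5-knockout eosinophils, where both passed, and at -0.43 and -0.33 in control, where they did not. The small channel subunits Sec61b and Sec61g and the partners Sec62 and Sec63 passed in neither genotype, with values from -0.24 to 0.47 in control and from -0.40 to 0.44 in Atg5-knockout eosinophils. Sec61b, the most abundant of the role per length, gave 207, 240.2 and 212 CPM in bone marrow control and 145, 213 and 203 in blood control libraries. Sec63, the least abundant, gave 75.01, 72.04 and 71.6 CPM in bone marrow and 70.9, 64.6 and 81.5 in blood, and both pairs of groups overlapped. Of the 3 accessory subunits of signal peptidase, Spcs2 (-0.998 and -0.92) and Spcs3 (-0.55 and -0.67) were lower in both genotypes, and Spcs1 was at 0.29 and 0.28 and did not pass. Spcs2 gave 277, 287 and 263 CPM in bone marrow and 103, 152 and 163 in blood of control mice, and Spcs3 254, 269 and 264 and 143, 190.0 and 207 CPM, both without overlap.

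Of the 8 members of ER-associated degradation, 3 were lower and 0 higher in blood in each genotype. Derl3, a Derlin of the machinery that draws proteins back out of the ER, gave 1.46, 1.14 and 1.09 CPM in bone marrow control and 0.305, 0.352 and 0.442 in blood control libraries, and its log2 fold changes of -1.74 ± 0.47 and -1.47 ± 0.42 rest on few counts. Derl2 (chr11:71007164-71019841), its relative, gave 38.5, 38.1 and 41.5 CPM in bone marrow and 20.3, 21.2 and 17.5 in blood in control and 35.3, 39.3 and 35.2 CPM in bone marrow and 23.2, 27.5 and 33.9 in blood in Atg5-knockout eosinophils. The tissues did not overlap in either genotype, and the log2 fold change was -1.01 ± 0.16 in control (adjusted p = 0.00201) and -0.36 ± 0.16 in Atg5-knockout eosinophils (adjusted p = 0.0925). Edem1, which marks misfolded glycoproteins by mannose trimming, was lower in both (-0.53 and -0.42). Sel1l, the adaptor of the ubiquitin ligase Syvn1, was at -0.43 ± 0.11 (adjusted p = 0.0121) in Atg5-knockout and -0.019 ± 0.18 (adjusted p = 0.948) in control eosinophils. Syvn1, Herpud1, Derl1 and Edem2 passed in neither genotype, with values between -0.23 and 0.10. Herpud1, the most abundant of the role, gave 202, 133 and 140.4 CPM in bone marrow control and 125, 159 and 184 in blood control libraries.

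The 3 sensors went in different directions. Ern1, the kinase and nuclease IRE1, gave 27.8, 26.9 and 30.4 CPM in bone marrow control and 21.05, 17.5 and 11.7 in blood control libraries and was lower in blood in both genotypes, at -0.77 ± 0.23 (adjusted p = 0.0302) and -0.96 ± 0.21 (adjusted p = 0.00558). Atf6 was higher in blood in Atg5-knockout eosinophils (0.34 ± 0.11, adjusted p = 0.0341) and did not pass in control eosinophils (0.43 ± 0.17, adjusted p = 0.0853). Eif2ak3, the kinase PERK, gave 42.5, 39.2 and 40.4 CPM in bone marrow and 39.5, 40.2 and 46.8 in blood in control and passed in neither, at 0.04 ± 0.15 and 0.31 ± 0.12. These are levels of messenger RNA and not activities of the sensors.

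Members with an ERSE were found on both sides of the test. Of the 9 members with an ERSE, 6 were lower in blood in control eosinophils, with a median log2 fold change of -1.04. Of the 26 with a window but neither element, 13 were lower and 1 higher, with a median of -0.48. In Atg5-knockout eosinophils the counts were 7 of 9 and 15 of 26, with medians of -1.04 and -0.46. Calr, Canx, Creld2 and Pdia6 were lower and Hspa5 and Syvn1 did not pass, all with an ERSE, and Sdf2l1 and Rpn1 were among the lowest without one in their windows. The split by element is a description without a test.

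Other genes of the secretory route, taken from lists, gave a mixed picture. Over all genes tested, 18% were lower and 16.2% higher in blood in control, and 24.1% and 23.5% in Atg5-knockout eosinophils. Counts of a list near these shares are not read as results about that list. Of 15 further folding and glycan-processing genes tested, 10 were lower in blood in control and 12 in Atg5-knockout eosinophils, with none higher and medians of -0.84 and -0.93. Pdia5, a further disulfide isomerase, fell furthest, from 12.4, 15.5 and 10.97 CPM in bone marrow control to 2.26, 2.46 and 1.42 in blood control libraries (-2.67 ± 0.31, adjusted p = 0.000373). The peroxiredoxin Prdx4 (-1.96 and -1.67) and the oxidase Ero1a (-1.23 and -1.30), which feed disulfide formation, were lower too. Of 20 genes of ER exit and retrieval, 5 were lower and 2 higher in control and 9 and 3 in Atg5-knockout eosinophils, with the cargo receptor Lman1 at -1.497 and -1.74 and the retrieval receptor Kdelr2 at -1.12 and -1.08. Of 9 further translocon, peptidase and oligosaccharyltransferase genes, 4 were lower and 1 higher in control and 2 and 1 in Atg5-knockout eosinophils, with the oligosaccharyltransferase subunits Krtcap2 at -0.99 and -1.14 and Stt3b at -0.95 and -1.004. Of 13 further degradation genes, 0 were lower and 3 higher in control and 2 and 4 in Atg5-knockout eosinophils, with the conjugating enzyme Ube2j2 at 0.66 and 1.12. The 9 tested genes of the signal recognition particle and its receptor gave 1 lower in control, and 3 lower and 1 higher in Atg5-knockout eosinophils, with the receptor subunit Srprb at -1.09 and -0.73.

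The transcription factors and phosphatase adaptors of the response did not share a direction. Ppp1r15a, whose product GADD34 reverses the translation block set by PERK, gave 9.83, 11.9 and 10.4 CPM in bone marrow control and 191, 206 and 86.98 in blood control libraries, and 15.3, 22.7 and 13.3 CPM in bone marrow and 210.2, 228 and 145 in blood Atg5-knockout libraries. It was higher in blood by 3.90 ± 0.33 (adjusted p = 6.72e-05) and 3.52 ± 0.25 (adjusted p = 1.31e-05) on the log2 scale. Xbp1, the factor spliced by IRE1 and named here after its values were seen, gave 459, 395 and 369.9 CPM in bone marrow control and 387, 518 and 1437 in blood control libraries, where library 3 stood apart, and it passed the test in Atg5-knockout eosinophils alone (0.99 ± 0.25, adjusted p = 0.00959, against 0.92 ± 0.43, adjusted p = 0.126). Chac1, a target of ATF4 and CHOP, was lower at under 5 CPM in every library (-2.41 and -2.27), while Atf4 and Ddit3, which encode ATF4 and CHOP, passed in neither genotype. In all, 2 of 13 genes of this list were lower and 1 higher in control, and 5 and 3 in Atg5-knockout eosinophils. These counts, and those of the next list, stand beside the shares over all genes given above. Of 8 receptors that carry ER into autophagosomes, 0 were lower, 1 was higher in control and 4 were higher in Atg5-knockout eosinophils, with Calcoco1 at 1.11 ± 0.15 and 1.06 ± 0.14.

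Transcripts of the granule proteins that pass through this route were lower in blood together with those of the ER genes, and protein was not measured. Epx, eosinophil peroxidase, gave 5140.2, 3350.3 and 3603 CPM in bone marrow control and 461, 467 and 946 in blood control libraries (-2.70 ± 0.33, adjusted p = 0.000493), and 1 of its alleles carries Cre in these mice. Prg3, a relative of major basic protein, was at -2.17 ± 0.31 and -2.62 ± 0.25 on the log2 scale. Of the 6 granule genes, 5 were lower in control and 6 in Atg5-knockout eosinophils, but Ear1, Ear2 and Ear6 are near-identical copies whose reads could be lost or shared. The ER genes moved between tissues beside the markers of cycling, immature myeloid and basophil or mast cells given above, while the neutrophil markers were mixed. The neutrophil list took 1.74 and 1.70 times the share of counts in bone marrow that it took in blood of control and Atg5-knockout mice. Of its 9 genes, 2 were lower and 0 higher in blood in control and 4 lower and 1 higher in Atg5-knockout eosinophils. The basophil and mast cell list, with 5 of 6 genes lower in blood in each genotype, took 3.01 and 3.004 times the share. The plasma cell list, whose cells are rich in ER, went the other way, at 966 to 2460 CPM in blood and 694 to 837 CPM in bone marrow libraries. It includes Xbp1, whose CPM given above are a large part of these sums in control libraries, so the sums do not measure plasma cells alone. Of its 9 tested genes, 1 was lower and 4 higher in blood in control, and 1 and 6 in Atg5-knockout eosinophils. Of the tested red cell and platelet genes, 6 of 10 and 9 of 11 were higher in blood in control, with 0 lower. In Atg5-knockout eosinophils 4 red cell genes were lower and 0 higher, and 1 platelet gene was lower and 3 higher. B cell genes were higher in blood for 1 of 4 and 6 of 7, and T cell genes for 2 of 4 and 7 of 7, with 0 lower. The part of these cell types in the difference between tissues was not tested.

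**Figure D4:**
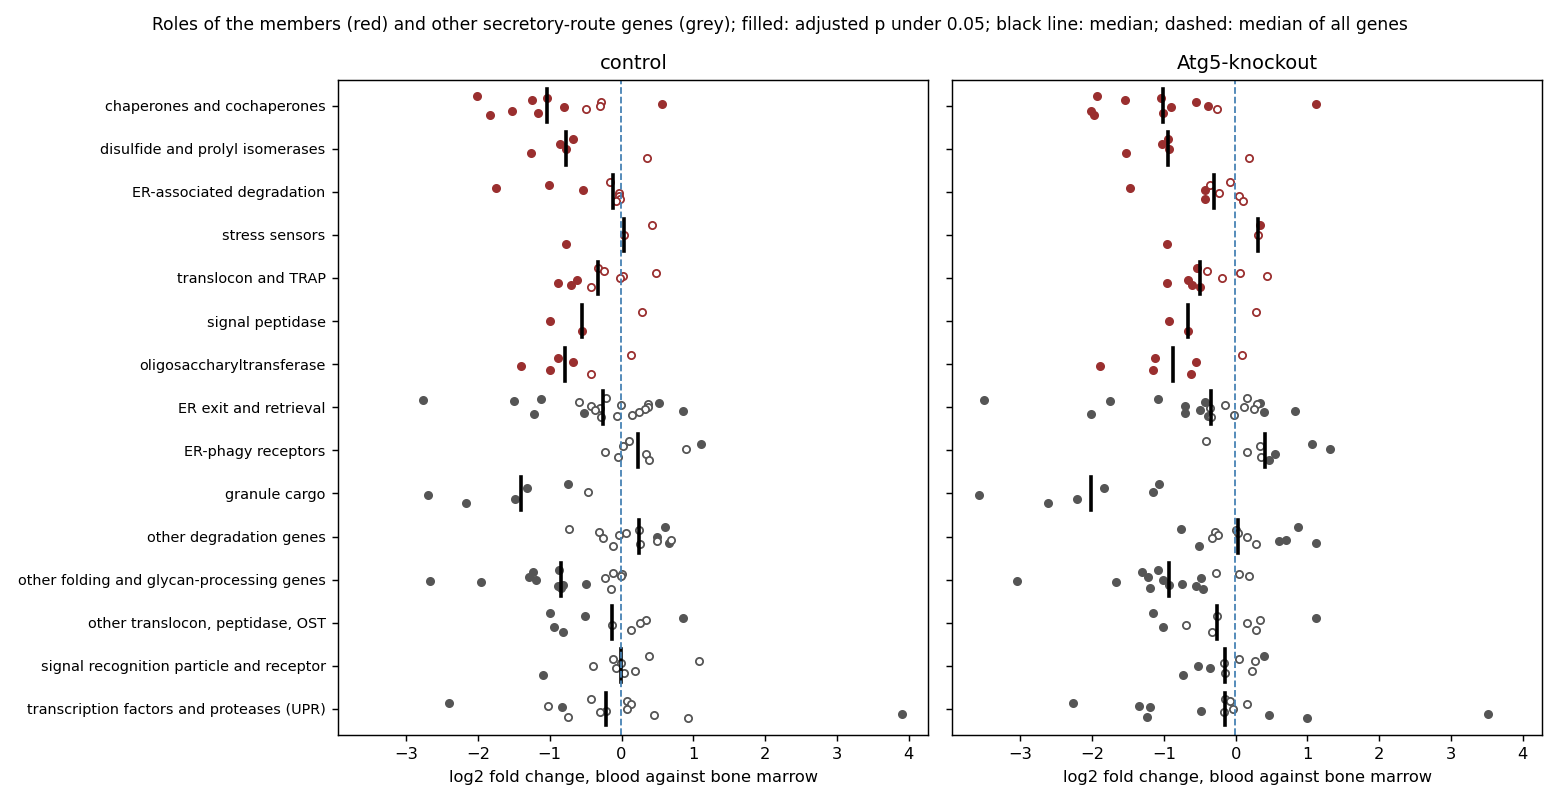
Log2 fold change between blood and bone marrow eosinophils of the 45 ER genes by role (red) and of other genes of the secretory route by list (grey), in control (left) and Atg5-knockout (right) mice. Each point is a gene, filled where the adjusted p was under 0.05, the black line is the list's median and the dashed line is the median of all genes tested. The medians of the granule cargo (-1.40 and -2.02) and of the chaperones (-1.04 and -1.004) lie to the left of that of all genes, and the list of transcription factors spreads to both sides.

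To ask whether loss of Atg5 changed the ER genes, Atg5-knockout eosinophils were compared with control eosinophils of the same tissue. In bone marrow 0 of 45 members passed the test, where edgeR called 0.203% of 13781 genes lower and 0.145% higher. Without adjustment, 2 members were lower and 0 higher at p under 0.05, where 5.31% and 4.36% of all genes were. The log2 fold changes ran from -0.44 to 0.61 with a median of 0.059, against 0.0029 over all genes, and 30 members were above 0 and 15 below. Leaving out 1 library moved this median to between 0.0083 (without Atg5-knockout library 2, with 21 members below 0) and 0.127 (without Atg5-knockout library 3, with 11 below 0). For 44 of the 45 members the 95% interval excluded a 2-fold change in either direction, and the exception was Derl3. All 3 knockout libraries lay above all 3 control libraries for Pdia3 and Atf6 and below them for Sec62, where 8.69% and 5.67% of all genes did so. The red cell list summed to 1272 to 2291 CPM in control and 1889 to 6439 CPM in Atg5-knockout bone marrow libraries. All 10 of its tested genes were higher in knockout, 4 of them without overlap and 1 called by edgeR (10 at an unadjusted p under 0.05), with a median log2 fold change of 1.33. The cycling cell list summed to 1563 to 1759 and 1839 to 2164 CPM. Its log2 fold changes were above 0 for all 10 genes, 6 of them without overlap and 0 called by edgeR (4 at an unadjusted p under 0.05). The part of these lists was not tested.

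Sec62 (chr3:30792875-30821263), a partner of the Sec61 channel that is also known as a receptor for ER turnover by autophagy, had the lowest p of the members in bone marrow. It gave 131, 158 and 132 CPM in control and 106, 109 and 103 in Atg5-knockout libraries, without overlap and with a log2 fold change of -0.44 ± 0.11 (edgeR adjusted p = 0.157). DESeq2 called it lower (adjusted p = 0.0156), as did edgeR without the filter on low counts (0.0215) and without bone marrow control library 1 (0.0496), and over all alternatives the adjusted p ran from 0.0156 to 1. In blood the 2 genotypes overlapped fully, with 89.1, 173 and 170.2 CPM in control and 92.04, 142 and 193 in Atg5-knockout libraries. Sec62 shares 11.7% of its exon bases with another annotated gene.

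The other 2 of the 3 members with the lowest p were Dnajb9 and Derl3. Dnajb9 gave 35.2, 27.6 and 33.7 CPM in control and 23.2, 27.9 and 27.4 in Atg5-knockout bone marrow libraries, which overlapped by 1 library, with a log2 fold change of -0.33 ± 0.12 (adjusted p = 0.425). Derl3 gave 1.46, 1.14 and 1.09 CPM in control and 2.22, 2.14 and 1.40 in Atg5-knockout libraries, also overlapping, with 0.61 ± 0.30 (adjusted p = 0.554, 95% interval -0.044 to 1.26). Calr (0.059 ± 0.11), Hspa5 (0.079 ± 0.20) and P4hb (0.11 ± 0.12), the abundant chaperones and isomerase, did not pass. The 5 isomerases were all above 0, at 0.09 to 0.20, and the 3 signal peptidase subunits lay between -0.04 and 0.02.

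**Figure D5:**
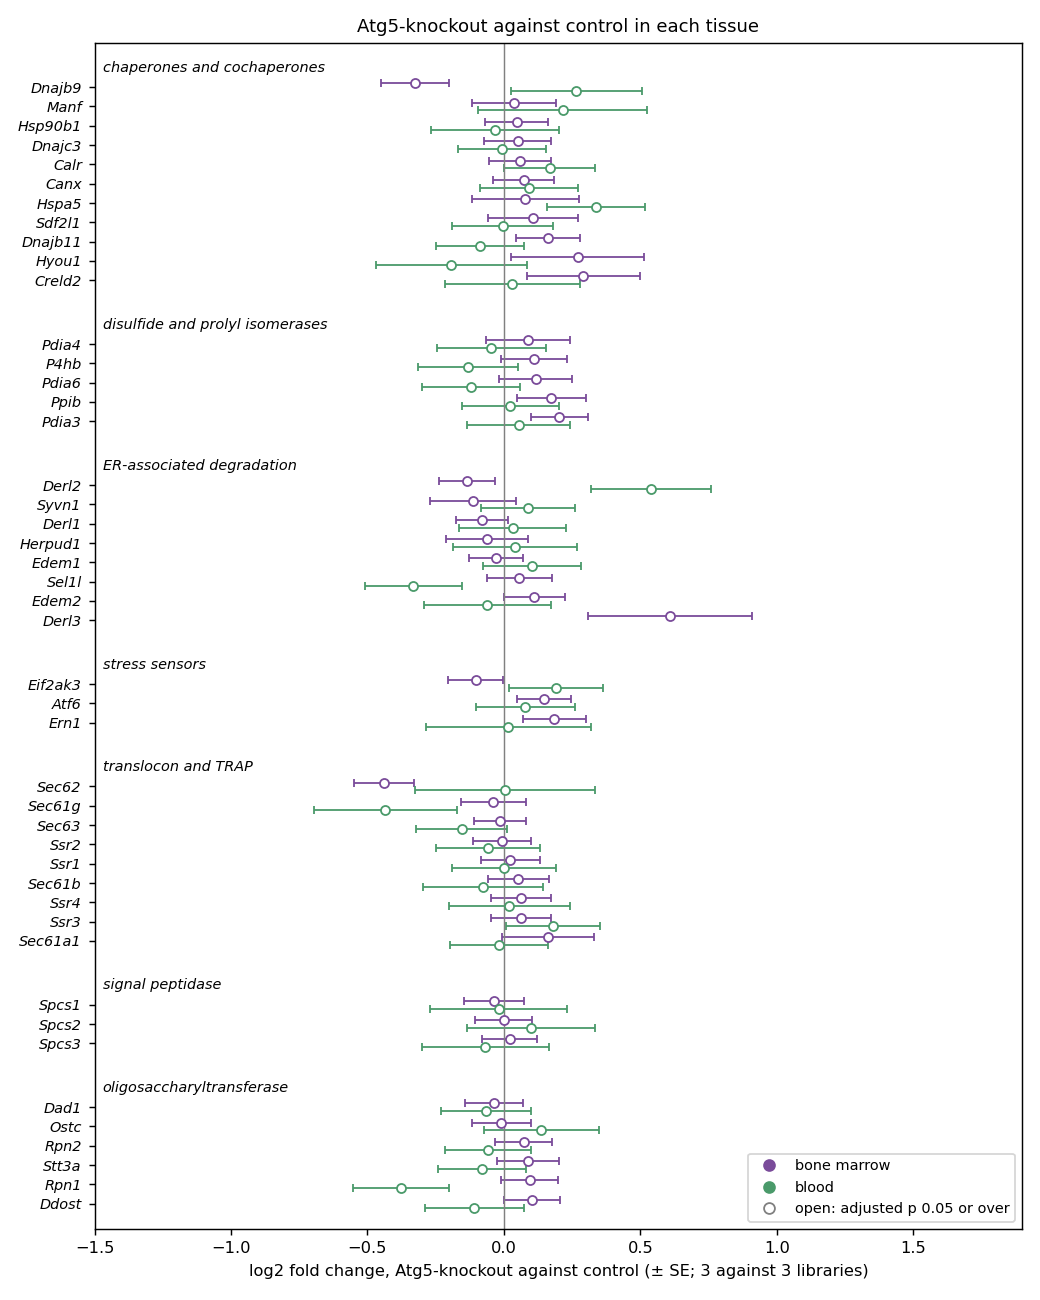
Log2 fold change of each of the 45 ER genes between Atg5-knockout and control eosinophils, by role, in bone marrow (purple) and blood (green), with its standard error from 3 against 3 libraries. Open points did not pass an adjusted p of 0.05, which holds for all of them, and Derl3 was not tested in blood. All values lie between -0.44 and 0.61.

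In blood 44 members had enough counts to be tested and 0 passed, where edgeR called 0 of 13460 genes lower and 0.0371% higher. Without adjustment 1 member was higher, against 1.1% of all genes, and 0 lower, against 1.48%. The median was -0.0026, against 0.0062 over all genes, with 23 members below 0 and 21 above. The 95% interval excluded a 2-fold change in either direction for 42 of 44 members, the exceptions being Derl2 and Sec61g. Derl3 was filtered out, at 0.305, 0.352 and 0.442 CPM in control and 0.815, 0.768 and 0.460 in Atg5-knockout libraries. All 9 tested red cell genes were below 0 in knockout blood, with a median log2 fold change of -3.47. Of these, 0 were called by edgeR and 9 had an unadjusted p under 0.05. All 11 platelet genes were below 0 as well, with a median of -2.44, 0 called and 8 under 0.05 without adjustment. The part of red cells and platelets was not tested.

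The 3 members with the lowest p in blood were Derl2, Rpn1 and Hspa5, and in each the genotypes did not overlap. Derl2 gave 20.3, 21.2 and 17.5 CPM in control and 23.2, 27.5 and 33.9 in Atg5-knockout libraries, with a log2 fold change of 0.54 ± 0.22 (edgeR unadjusted p = 0.0376, and close to 1 after adjustment over all genes for each of the 3). Rpn1 gave 96.4, 121 and 126 CPM in control and 94.3, 85.98 and 81.01 in Atg5-knockout libraries, with -0.38 ± 0.18. Hspa5 gave 518, 546 and 477 and 574, 626 and 719 CPM, with 0.34 ± 0.18. Derl2 and Hspa5 were thus the higher and Rpn1 the lower in knockout blood, with gaps between the groups that were small beside the spread within them. Over all genes 3.53% lay wholly higher and 4.05% wholly lower in knockout blood libraries, and of the members tested 2 did in each direction, the fourth being Sel1l. Same-numbered blood libraries of the 2 genotypes deviated together, and with the number as a replicate block 0 members passed as well, with adjusted p of 0.638 for Derl2 and 0.657 for Rpn1 and Hspa5. DESeq2 also called 0 members in blood. Without both blood libraries numbered 1, which held the most B cell marker counts, the values were 0.68 for Derl2, -0.55 for Rpn1 and 0.41 for Hspa5, and 0 members passed.

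Whether the knockout acted differently in the 2 tissues was asked with an interaction term over the 12 libraries, and edgeR called 0 of 45 members and 0 of 14712 genes. Without adjustment, by edgeR's quasi-likelihood test, Derl2 (log2 difference 0.62 ± 0.22, adjusted p = 0.925) and Rpn1 (-0.52 ± 0.19, adjusted p = 0.942) were under a p of 0.05, 1 in each direction, where 1.86% of all genes were higher and 3.17% lower. Both genes thus had opposite signs in the tissues, with Derl2 at -0.14 in bone marrow and 0.54 in blood and Rpn1 at 0.095 and -0.38. DESeq2 called 11 genes in this interaction, none of them a member. None of the other genes of the secretory route passed in a genotype comparison either, with 87 tested in bone marrow and 85 in blood. In bone marrow 5 were lower and 4 higher at an unadjusted edgeR p under 0.05, where 5.31% and 4.36% of all genes were. In blood 0 were lower and 1 higher, where 1.48% and 1.1% of all genes were.

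The members also differed in how much they varied between libraries of a group. The median coefficient of variation of the CPM was 8.19% in bone marrow control, 9.41% in bone marrow Atg5-knockout, 15.1% in blood control and 12.2% in blood Atg5-knockout eosinophils. Hyou1 varied most in both bone marrow groups, at 42.7% and 24.5%, followed by Hspa5 in control at 34.0% and Creld2 in knockout at 24.4%. Bone marrow control library 1 held the highest level of 32 of the 45 members of its group, and bone marrow Atg5-knockout library 3 the lowest of 35. In blood, library 1 held the lowest level of 24 members in control and of 25 in Atg5-knockout eosinophils, and 16 members were lowest there in both. These 16 included the 3 signal peptidase subunits and Sec61b, Sec62, Ssr2 and Ssr4 of the translocon, with Spcs1 at 101, 162 and 176 CPM in blood control and 112, 157 and 159 in blood Atg5-knockout libraries. The order of libraries was not counted over all genes, so these counts do not tell a trait of the members from one of the library. Both blood libraries numbered 1 also held more B cell markers than the other blood libraries, and the part of these cells was not tested.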

How the data were processed

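RNA was sequenced from 12 eosinophil libraries in 4 groups of 3, grouped by the labels' genotype and tissue. Per the study's methods, the authors aligned reads with HISAT2 2.2.1 and counted them per gene with featureCounts, and they deposited raw counts without normalization. The file header names an annotation of GRCm38, whereas the methods name a GRCm39 release. Strand and multiple alignment settings were not in the header's command, so reads in bases shared by 2 genes were not counted and antisense pairs cannot be told apart. Symbols came from GENCODE identifiers (49674 of 53801 matched), and promoters from RefSeq (GRCm38.p6).

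Genes with enough counts (filterByExpr, minimum count 10, minimum total 15) were tested with edgeR 4.0.16 in R 4.3.3 (TMM scaling, quasi-likelihood test, Benjamini-Hochberg adjustment over all genes, calls at 0.05), with the 6 libraries of each comparison, and all 12 for the interaction. CPM are TMM-scaled, and TPM use the table's gene lengths without TMM factors. On simulated data the script was tested first. The simulated spread between libraries was fixed and smaller than that of both tissue comparisons and of the blood genotype comparison. The simulation therefore does not show which differences could be called in those. Replicate pairs of a group differed beyond counting noise. P-values set the difference between groups against the spread between these libraries. Same-numbered blood libraries of the 2 genotypes correlated in their deviations from the group means (0.499, 0.208 and 0.298), so the number was also fitted as a block. Such correlations lay between -0.147 and 0.129 in the other comparisons. The alternatives were DESeq2 1.42.0, other scalings, no filter, the block, 1 fit of 12 libraries, a log2 threshold of 2, and leaving out each library, or (chosen after seeing the data) both blood libraries numbered 1.

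Members and lists were chosen with earlier results of these data known. Full values are given for the 8 members of lowest p called per comparison, or 3 where none was called, and for the highest and lowest TPM of a role, and up to 2 genes of lowest p are named per list.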

Additional observations from a re-analysis of the deposited data

How the results depend on the processing

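The counts of members lower in blood stayed within 1.5 times under every alternative other than the log2 threshold of 2, which left 1 lower and 0 higher in either genotype. The count of members higher in blood was 0 in control and 1 in Atg5-knockout eosinophils with library size alone and without the filter on low counts, 2 and 1 in the fit of 12 libraries, and 1 in Atg5-knockout eosinophils with the replicate block. Leaving out 1 library gave 16 to 25 lower and 0 to 1 higher in control, with 16 lower and 0 higher without any 1 of the bone marrow control libraries, and 21 to 31 lower and 1 to 3 higher in Atg5-knockout eosinophils. The replicate block gave 23 lower and 1 higher in control, 28 lower and 1 higher in Atg5-knockout eosinophils and 0 in both genotype comparisons and the interaction, and changed no other count of members past 1.5 times. In the bone marrow genotype comparison 1 member, Sec62, was lower by DESeq2, without the filter, and without bone marrow control library 1, and leaving out 1 library gave 0 to 1. In blood the median of the members between genotypes, -0.0026, was 0.082 with library size alone, where that of all genes was 0.097, so that the members less all genes stayed below 0 (-0.016 against -0.0089). Leaving out 1 library gave -0.070 to 0.068, with a change of sign without blood Atg5-knockout library 1 (0.038), blood control library 2 (0.040) and blood control library 3 (0.068). In bone marrow this median, 0.059, ran from 0.0083 to 0.127 on leaving out 1 library (0.038 without Atg5-knockout library 1, 0.0083 without 2 and 0.127 without 3, and 0.120 without control library 1, 0.042 without 2 and 0.016 without 3). With the red cell list and granule genes out of the totals, the share of counts was 1.34% in bone marrow control, 1.46% in bone marrow Atg5-knockout, 0.656% in blood control and 0.662% in blood Atg5-knockout eosinophils, and the blood genotypes, apart in the shares of all counts, overlapped (0.649% to 0.669% and 0.651% to 0.671%). The causes of these shifts were not tested. The SE of the members' log2 fold changes between genotypes in blood ran from 0.157 to 0.329, and differences of the size of these errors were not detectable at this number of libraries.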
